A study of Mus musculus with 6 samples.

Results

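The genes described are the Rab GTPase genes, taken as every gene of the authors' table of protein-coding genes whose symbol is Rab followed by a number, with a letter or a further digit where one is present. Genes with longer names, such as Rab effectors, were not counted as members. There were 54 such genes among the 15973 protein-coding genes of that table, and 51 of them had enough counts to be tested. A further 5 Rab genes of the annotation, Rab9b, Rab36, Rab38, Rab39 and Rab42, are not in that table and had 0 counts in every library. Rab proteins are small GTPases that act as molecular switches on membranes. In the GTP-bound form they recruit motors, tethers and other effectors, and each Rab marks a particular compartment or transport step, so that cargo taken up at the cell surface passes from early endosomes to recycling endosomes or on to late endosomes and lysosomes. Modified lipoproteins such as acetylated low-density lipoprotein (acLDL), which scavenger receptors take up, enter cells by this endocytic route.

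The cells were 4T1-T, a single sub-clone of the mouse mammary carcinoma line 4T1 that performs vascular mimicry (VM), in which tumour cells line channels that carry blood. They were grown in RPMI, plated at 40% confluency, kept overnight without serum in Opti-MEM with bovine serum albumin from 24 h after plating, given Alexa-488 acLDL at 10 ug/mL for 4 h, washed, returned to growth medium for 1 h and sorted. The 25% of cells with the most label (acLDL-high) and the 25% with the least (acLDL-low) were collected, with 3 libraries of each population, numbered as replicates 1 to 3 in the labels. Both populations therefore received the same medium, serum starvation and labelled acLDL, and no unlabelled or unsorted cells enter the comparison.

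RNA-seq gave between 70263372 and 94216786 counts per library, of which 98.4% to 98.7% fell in protein-coding genes. Levels are given as CPM (counts scaled to a common library size) after TMM scaling, and CPM per kb of exon where genes are compared with each other. Of 7 epithelial markers in the table, all were higher in acLDL-high cells on average, none passed the test, and their median log2 fold change was 0.09. Their summed level was 3004 to 5158 CPM in acLDL-low and 3306 to 5434 CPM in acLDL-high libraries, and the basal keratin Krt5 was at 0 throughout. Macrophage markers summed to 19.2 to 21.6 CPM in acLDL-low and 20.1 to 24.4 CPM in acLDL-high libraries. Adgre1, Tyrobp and C1qa were at 0 among the 10 listed. Endothelial markers summed to 1.96 to 3.18 CPM and 1.80 to 2.64 CPM, with Emcn, Erg and Flt4 at 0 among the 10 listed. Their highest counts in a library were 164 for Tie1, 44 for Esam and 30 for Cdh5. Pecam1 reached 29, Vwf 16, and Kdr and Tek 2. Of the 4 endothelial markers tested none was called, with 2 positive and 2 negative values and a median log2 fold change of -0.19. All 15 genes of a G2/M list were higher in acLDL-high cells, with a median log2 fold change of 0.31. Of them 10 (66.7%) passed the test, against 4.75% of all genes tested. That list was chosen with earlier results of these data known, so its values only describe these libraries.

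Of the 51 Rab genes tested, 2 were higher and none was lower in acLDL-high cells at an adjusted p under 0.05 (edgeR quasi-likelihood test, blocked on replicate number). They were Rab32, a GTPase of lysosome-related organelles that also associates with mitochondria, and Rab25, a Rab11 relative of epithelial cells that returns cargo from recycling endosomes to the surface. These 2 are 3.92% of the Rab genes tested, against 4.75% of all 12572 genes, of which 3.43% were higher and 1.32% lower. At an unadjusted p under 0.05 there were 9 of 51 Rab genes, against 2435 of 12572 genes in all. DESeq2 called 1 Rab gene, Rab32, against 514 of the 12572 genes in its fit. Genes to which it gave no adjusted p, Rab3b, Rab33a and Rab39b among them, are in these totals but could not be called. The Rab genes as a group were thus called at about the rate of all genes.

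The sequences upstream of these 2 genes are shown because they are the only Rab genes whose RNA level passed the test. Rab25 lies on the reverse strand at chr3:88542029-88548300 and Rab32 on the reverse strand at chr10:10545002-10558265 (GRCm38, GENCODE M21), and no exon of another gene overlaps either. The stretch before the start of Rab25 is chr3:88548301-88548529 and that before Rab32 is chr10:10558266-10558457, both from RefSeq (GRCm38.p6), 5′ to 3′ along the gene. Capitals mark a cAMP response element (TGACGTCA) and 2 E2-boxes (CACCTG, the latter of them on the opposite strand) in the Rab25 stretch. Both of these motifs were added to the search after the sequences had been seen. None of the other motifs searched, listed below, was found for either gene.
Rab25: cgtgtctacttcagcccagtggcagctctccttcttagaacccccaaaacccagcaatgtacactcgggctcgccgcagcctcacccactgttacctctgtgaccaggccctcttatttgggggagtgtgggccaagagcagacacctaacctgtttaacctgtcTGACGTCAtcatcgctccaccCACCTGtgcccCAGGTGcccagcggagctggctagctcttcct
Rab32: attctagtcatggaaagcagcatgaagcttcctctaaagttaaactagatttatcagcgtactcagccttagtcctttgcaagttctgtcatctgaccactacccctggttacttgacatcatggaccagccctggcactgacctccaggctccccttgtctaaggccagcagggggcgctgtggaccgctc
The RefSeq start lies inside the GENCODE gene, by 21 bases for Rab25 and 58 bases for Rab32, and the stretches end before the GENCODE start. Counted from the RefSeq start, with those 21 bases included, the cAMP response element begins 85 bases and the E2-boxes 64 and 53 bases upstream. No searched motif was found in the Rab32 window.

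A promoter window, from 250 bases before to 50 bases after the start, was found for 45 of the 54 Rab genes. Their median GC content was 61.3%, against 53.0% over all 32544 windows. The ratio of observed to expected CpG was under 0.6 in 10 of the 45 (22.2%), against 63.9% of all windows, so most Rab genes had CpG-rich promoters. Rab25 (0.371) and Rab32 (0.406) were both among the 10, together with Rab3b, Rab3c, Rab5b, Rab9, Rab17, Rab19, Rab33a and Rab34. Motifs were searched as exact letters on both strands. The GC box (GGGCGG) was in 68.9% of the Rab windows and 35.9% of all windows, and the TATA box (TATAAA) in 6.67% and 13.6%. The CCAAT box (CCAAT) was in 44.4% and 37.4%, the E-box (CACGTG) in 11.1% and 7.17%, the AP-1 site (TGACTCA) in 4.44% and 5.19%, and the ETS core (CCGGAAGT) in 4.44% and 3.92%. The cAMP response element was in 4.44% of Rab windows (2 of 45, Rab25 among them) and 1.80% of all windows, and the E2-box in 17.8% and 20.3%. The last 2 motifs were added after the windows had been seen. None of the motifs contains another as a whole, but some are close in their letters, such as the E-box and the E2-box. A match is a description of the sequence only.

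The Rab genes of these cells differed widely in level. Per kb of exon, Rab2a, which acts between the endoplasmic reticulum and the Golgi, was highest at 108 CPM per kb, followed by Rab7, the late endosome and lysosome GTPase, at 104 CPM per kb, and their ranges over the 6 libraries overlapped. Rab5c, an early endosome GTPase, came next at 93.8 CPM per kb and Rab10, which carries vesicles to the plasma membrane, at 74.0 CPM per kb. With Rab1a at 49.3 CPM per kb, these 5 genes held 48.6% of the summed level of all Rab genes, and the 10 highest held 69.1%. At the other end, 13 of the 54 genes were under 1 CPM on average. The length used counts every annotated exon, which can understate a gene with long exons, such as Rab14 with 13589 bases.

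**Figure D1:**
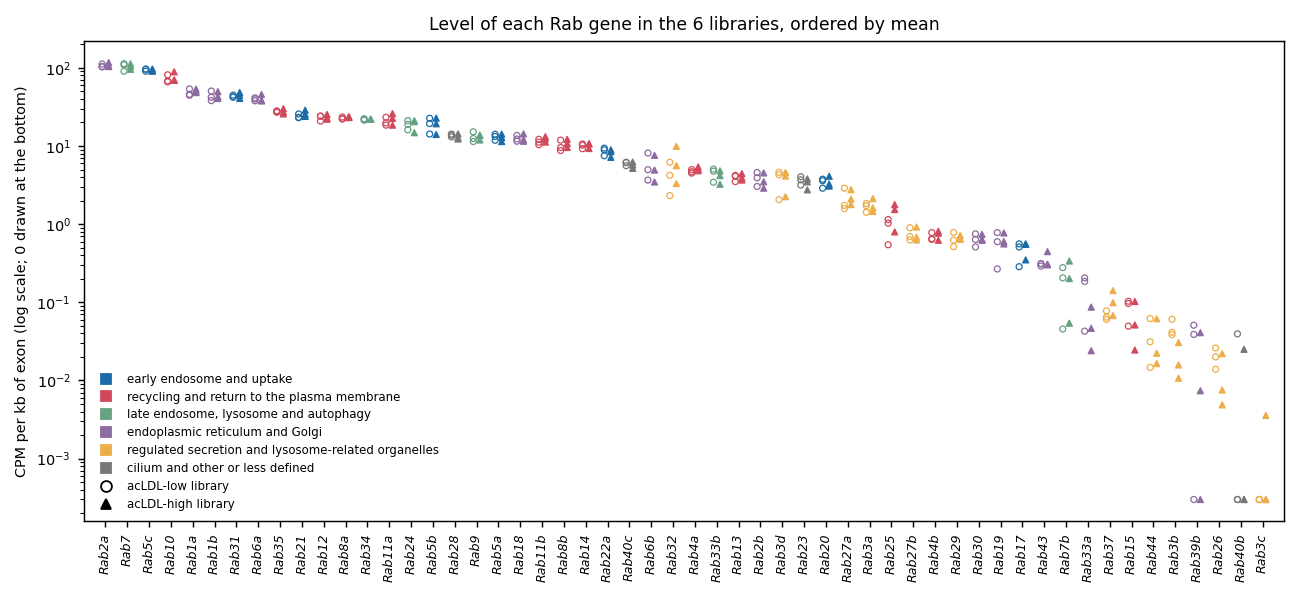
Level of each of the 54 Rab genes in CPM per kb of exon (log axis), ordered by mean, with 1 open circle per acLDL-low and 1 triangle per acLDL-high library, coloured by role. Rab2a, Rab7, Rab5c and Rab10 lead, and the populations overlap for every gene tested except Rab3b.

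By role, the endoplasmic reticulum and Golgi group held 30.0% of the summed level per kb, recycling Rab genes 24.0%, early endosome Rab genes 23.4%, late endosome and lysosome Rab genes 18.4%, the cilium and less defined group 2.58% and the regulated secretion group 1.62%. Within families of near relatives, 1 gene often held most of the level. Rab5c held 74.8% of the Rab5 family, Rab7 99.8% of the Rab7 pair, Rab2a 96.7% of the Rab2 pair and Rab6a 88.3% of the Rab6 pair. Rab1a and Rab1b were closer, at 52.9% and 47.1%, and Rab11a and Rab11b held 64.4% and 35.6%. Near relatives share sequence. Exons of 20 of the 54 genes overlap exons of another gene, 6 on the same strand and 15 on the opposite strand (1 of them on both). How reads of shared stretches were counted is not given in the sources used here, so such a level can be too high or too low.

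The Rab genes as a whole took a like share of the RNA in both populations. Their summed level was 2902, 2836 and 2972 CPM in acLDL-low replicates 1 to 3 and 2982, 2814 and 3113 CPM in the acLDL-high ones. The log2 fold changes, given throughout as acLDL-high against acLDL-low, had a median of 0.03 over the Rab genes and 0.00 over all genes tested, and a median size of 0.07 in each. Among the Rab genes 35 values were positive and 16 negative. Higher levels in acLDL-high cells in all 3 pairs were seen for 10 Rab genes (19.6%), against 20.9% of all genes, and lower levels in all 3 pairs for 6, against 19.4% of all genes. Most abundant members were measured closely. Of the 31 at 10 CPM or more, 30 had a 95% interval within 0.3 of 0 on the log2 scale, the exception being Rab32, and the log2 fold changes of those 30 ranged from -0.13 to 0.12.

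**Figure D2:**
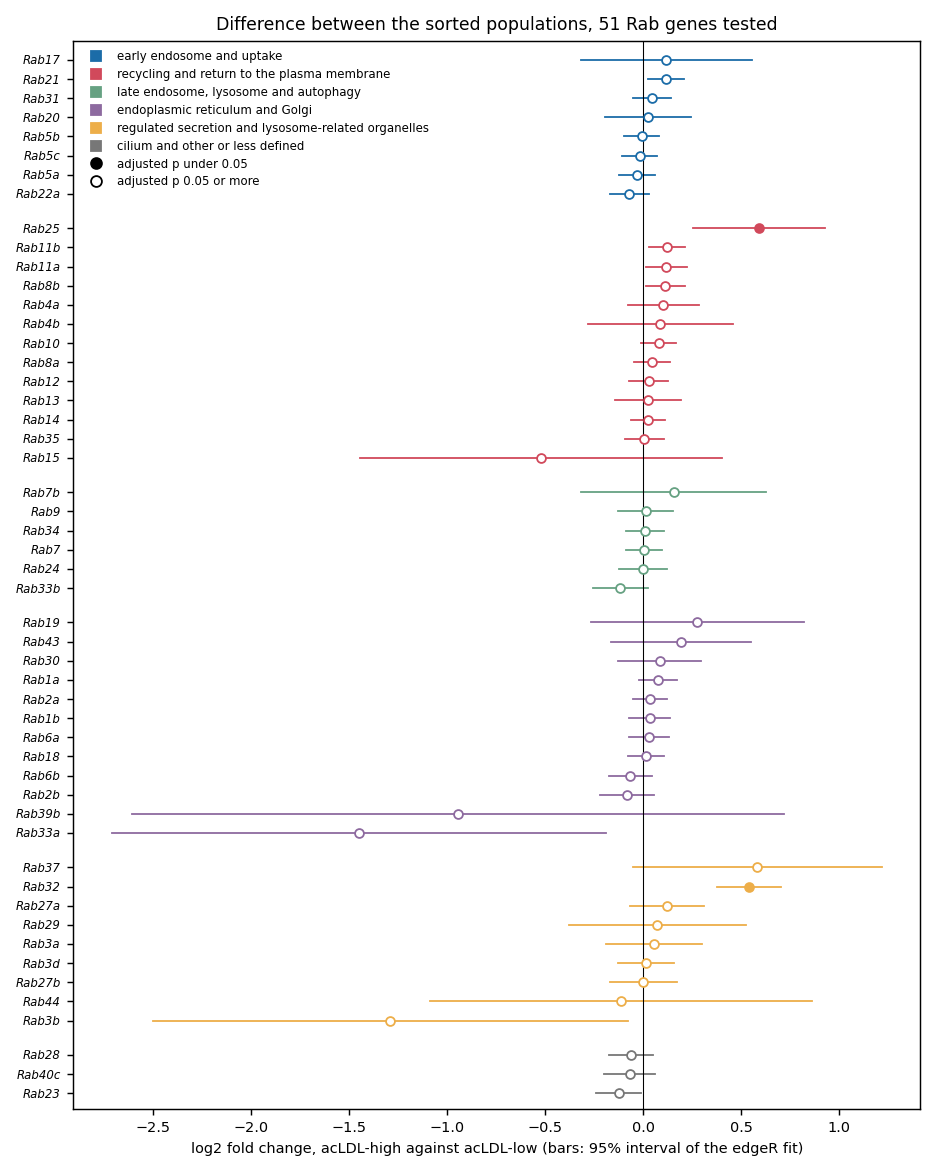
Log2 fold change of acLDL-high against acLDL-low cells for the 51 Rab genes tested, grouped and coloured by role, with the 95% interval of the edgeR fit as a bar. Filled points, Rab25 and Rab32, have an adjusted p under 0.05, and the wide bars belong to genes of few counts such as Rab33a, Rab3b and Rab39b.

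Rab32 had 14.5, 9.85 and 5.43 CPM in acLDL-low replicates 1 to 3 and 23.2, 13.1 and 7.75 CPM in the matching acLDL-high libraries. The acLDL-high library was the higher of every pair, but the populations overlapped, because replicate 1 was highest and replicate 3 lowest in both. The means were 9.92 ± 4.53 CPM (SD, n = 3) in acLDL-low and 14.7 ± 7.82 CPM (SD, n = 3) in acLDL-high cells. Within pairs the difference was 0.68, 0.41 and 0.51 on the log2 scale. The fitted log2 fold change was 0.54 (SE 0.08, edgeR adjusted p = 0.00146), a ratio of 1.46 with a 95% interval of 1.30 to 1.63. In a fit lacking the replicate block its log2 fold change was 0.57 and the adjusted p was 1. In bulk RNA, a larger share of cells that express a gene and more RNA of it per cell cannot be told apart. Of the 10 macrophage markers, 4 were tested, with 3 positive values and 1 negative, from -0.28 to 0.83 with a median log2 fold change of 0.31. Cd14, a co-receptor for bacterial lipopolysaccharide, was the 1 marker called, at a log2 fold change of 0.32 (edgeR adjusted p = 0.0246). Their highest counts in a library were 1302 for Cd14, 812 for Cd68, 228 for Mrc1, 16 for Ptprc, 4 for Csf1r and Fcgr1 and 2 for Itgam, and the other 3 were at 0. The part of the marker and G2/M values in this difference was not tested.

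Rab25 had 0.912, 1.72 and 1.91 CPM in acLDL-low replicates 1 to 3 and 1.33, 2.98 and 2.57 CPM in acLDL-high ones, from 69 to 239 counts per library. Again the acLDL-high library was the higher of every pair and the populations overlapped, with replicate 1 lowest in each. The means were 1.52 ± 0.532 CPM (SD, n = 3) and 2.29 ± 0.856 CPM (SD, n = 3). The differences within pairs were 0.53, 0.78 and 0.42 on the log2 scale, and the fitted log2 fold change was 0.59 (SE 0.16, edgeR adjusted p = 0.0492), a ratio of 1.51 with a 95% interval of 1.19 to 1.90. This call sat at the threshold. Its adjusted p was 0.117 with DESeq2, 1 without the block, 0.0573 without replicate 1, 0.185 without replicate 2 and 0.201 without replicate 3, while its log2 fold change stayed between 0.48 and 0.69 over the alternatives. Rab25 belongs to epithelial cells, and the epithelial markers were higher by a median log2 fold change of 0.09, none of them called. Their part in the difference was not tested.

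**Figure D3:**
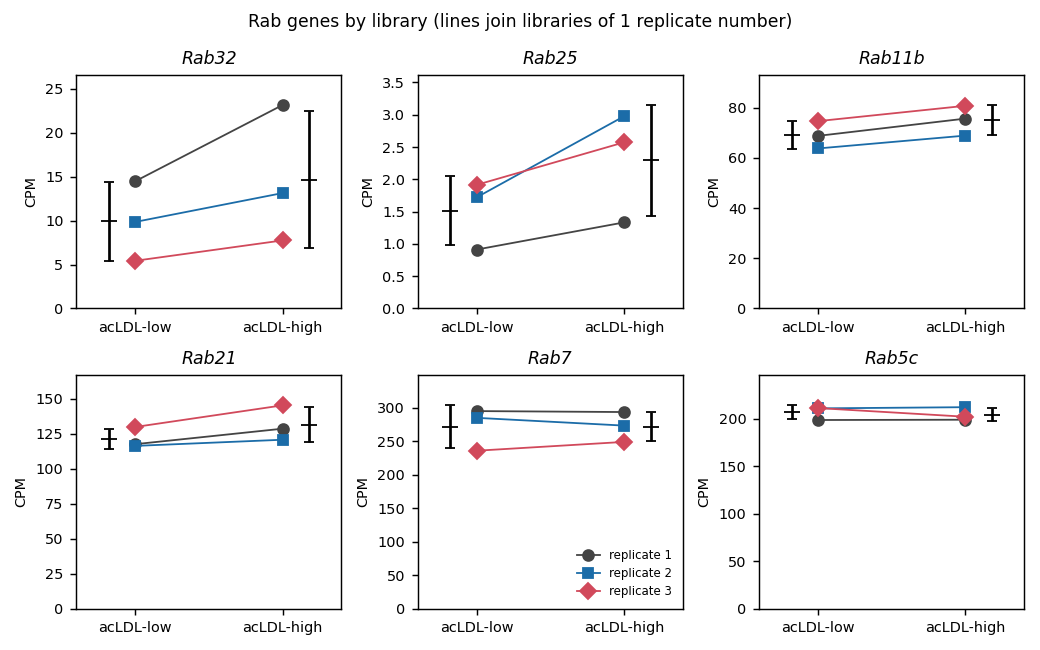
CPM (axis from 0) of 6 Rab genes in each library, with a line joining the acLDL-low and acLDL-high libraries of 1 replicate number and the mean ± SD (n = 3) beside each population. The acLDL-high library is the higher on every line of Rab32, Rab25, Rab11b and Rab21, and Rab7 and Rab5c show no common direction.

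Among the 8 early endosome Rab genes, which receive cargo after uptake, 4 values were positive and 4 negative, none was called, and the median log2 fold change was 0.01. Rab5c, the most abundant of them, had 199, 211 and 211 CPM in acLDL-low and 199, 212 and 202 CPM in acLDL-high libraries. The populations overlapped closely, with a log2 fold change of -0.02 (SE 0.04, edgeR adjusted p = 0.866) and a 95% interval of -0.11 to 0.07. Rab21, which regulates endocytosis of integrins, had 117, 116 and 130 CPM and 129, 121 and 145 CPM. It was higher in each acLDL-high library of a pair, with a log2 fold change of 0.12 (SE 0.04) that missed the threshold (edgeR adjusted p = 0.151). Rab22a, of early and recycling endosomes, had 67.7, 54.1 and 64.3 CPM and 61.0, 51.6 and 64.5 CPM, a log2 fold change of -0.07 (SE 0.05, edgeR adjusted p = 0.429).

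Of the 13 recycling Rab genes, which return membrane and receptors to the cell surface, 12 values were positive, against 6356 of the 12572 genes tested. Higher levels in all 3 pairs were seen for 7 of them (53.8%), against 20.9% of all genes. Their median log2 fold change was 0.08. Only Rab25 was called. Rab10, the most abundant, had 233, 239 and 286 CPM in acLDL-low and 247, 243 and 312 CPM in acLDL-high libraries. Each pair was higher in acLDL-high cells, by less than the replicates differed, and the log2 fold change was 0.08 (SE 0.04, edgeR adjusted p = 0.339). Rab11b, a recycling endosome GTPase, had 68.8, 63.7 and 74.6 CPM and 75.6, 68.9 and 80.7 CPM. Its differences within pairs were 0.14, 0.11 and 0.11 on the log2 scale and its log2 fold change was 0.12 (SE 0.04, edgeR adjusted p = 0.131). Its close relative Rab11a also had a log2 fold change of 0.12 (SE 0.05), and Rab8b, which acts in exocytosis, one of 0.11 (SE 0.05), and neither was called. The exception in direction was Rab15, with a log2 fold change of -0.52 (SE 0.43) at under 1 CPM. Its differences within pairs were -1.85, 0.08 and 0.05 on the log2 scale, so only replicate 1 was negative. Each gene was given 1 role only. Rab22a, of early and recycling endosomes, was counted with the early endosome genes and had a log2 fold change of -0.07. The members were grouped with earlier results of these data known, so the shared direction is a description of these libraries.

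Late endosome and lysosome Rab genes, through which internalised lipoprotein reaches the compartment that breaks it down, showed no call among 6, with a median log2 fold change of 0.01. Rab7 had 295, 285 and 236 CPM in acLDL-low and 294, 274 and 249 CPM in acLDL-high libraries. Replicate 3 was lowest in both populations, and the log2 fold change was 0.00 (SE 0.04, edgeR adjusted p = 0.975), with a 95% interval of -0.09 to 0.10. Rab33b, which acts in autophagosome formation and Golgi traffic, had 16.9, 12.2 and 17.9 CPM and 14.8, 11.5 and 17.0 CPM. It was lower in every acLDL-high library of a pair, with a log2 fold change of -0.12 (SE 0.06, edgeR adjusted p = 0.351). Rab7b, a late endosome to Golgi GTPase, had 0.952, 0.21 and 1.29 CPM and 0.93, 0.25 and 1.56 CPM, a log2 fold change of 0.15 (SE 0.22, edgeR adjusted p = 0.761).

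The 12 endoplasmic reticulum and Golgi Rab genes, which serve the secretory route, had 8 positive and 4 negative values, a median log2 fold change of 0.03 and no call. Rab2a had 219, 222 and 239 CPM in acLDL-low and 226, 221 and 249 CPM in acLDL-high libraries, a log2 fold change of 0.03 (SE 0.04, edgeR adjusted p = 0.71). Rab1a, required for transport to the Golgi, had 174, 204 and 169 CPM and 183, 203 and 191 CPM, a log2 fold change of 0.08 (SE 0.05, edgeR adjusted p = 0.387). For both, the populations overlapped. Rab33a, a Golgi relative of Rab33b, had the most negative value of all, -1.45 (SE 0.58, edgeR adjusted p = 0.192), from 18, 4 and 15 counts in acLDL-low and 8, 2 and 5 counts in acLDL-high libraries, so its level lay close to the 3 counts taken as the floor.

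In the regulated secretion group, 9 of 11 Rab genes were tested, 7 values were positive and 2 negative, and the median log2 fold change was 0.06. Rab32, the group's only called gene, was also its most abundant per kb of exon. Rab3b, a synaptic and secretory vesicle GTPase, had 11, 11 and 15 counts in acLDL-low and 3, 4 and 10 counts in acLDL-high libraries. Its CPM, 0.145, 0.136 and 0.214 against 0.0377, 0.0556 and 0.108, made it the 1 Rab gene of 51 whose populations did not overlap, against 2.86% of all genes. At those counts its log2 fold change was -1.29 (SE 0.56, edgeR adjusted p = 0.226). Rab26, Rab40b and Rab3c were too low to test, with at most 6 counts in any library, and 3 counts correspond to 0.0323 to 0.0429 CPM.

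The cilium and less defined group had 3 tested genes, all with negative values and none called. Rab28, a ciliary GTPase and the most abundant of them per kb, had 59.3, 64.3 and 62.4 CPM in acLDL-low and 57.8, 55.7 and 64.7 CPM in acLDL-high libraries, a log2 fold change of -0.06 (SE 0.05, edgeR adjusted p = 0.554). Rab23, a regulator of Hedgehog signalling at the cilium, had 33.5, 30.6 and 26.3 CPM and 31.5, 28.8 and 22.8 CPM. It was lower in each acLDL-high library of a pair, with a log2 fold change of -0.13 (SE 0.05, edgeR adjusted p = 0.204). Rab40c, of a group that recruits ubiquitin ligases, had 19.2, 19.0 and 17.3 CPM and 19.3, 17.7 and 16.0 CPM, a log2 fold change of -0.07 (SE 0.06, edgeR adjusted p = 0.589).

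More Rab genes were called between the 3 replicate numbers than between the sorted populations. Between the numbers, 35 of the 51 (68.6%) were called at an edgeR adjusted p under 0.05, against 78% of all genes. Replicate 2 was the lowest in 23 of the 35 and replicate 3 the highest in 20. Rab7b differed most among the members with counts in each replicate, from 0.941 to 0.230 to 1.42 CPM over replicates 1, 2 and 3, a 6.18-fold range. Rab32 was next among members above 1 CPM, at 18.8, 11.5 and 6.59 CPM, a 2.86-fold range. Rab6b, a neuronal relative of Rab6a, had 24.9, 17.9 and 39.5 CPM, and Rab3d, of secretory granules, 19.3, 9.03 and 17.7 CPM. Rab27a, which docks secretory granules and exosomes, was highest in replicate 2, at 10.9 CPM against 6.52 and 7.43 CPM. The abundant members differed less, and 26 of the 31 at 10 CPM or more differed by under 1.5-fold. The design text says that the experiment was done on separate occasions. Whether a replicate number stands for a culture, a day or a sort is not given in the sources used here.

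**Figure D4:**
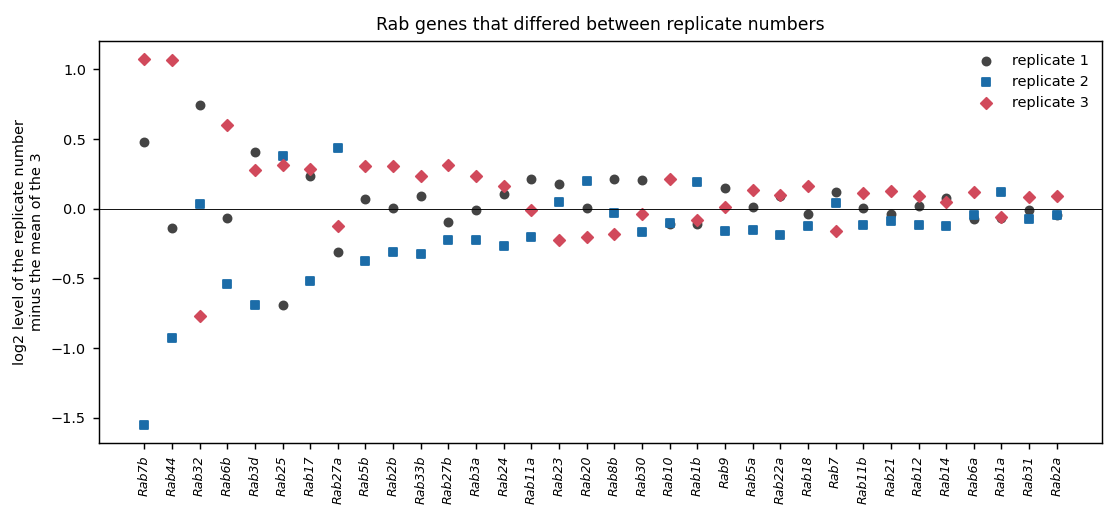
Log2 level of each replicate number (mean of its acLDL-low and acLDL-high libraries) minus the mean of the 3 for 34 of the 35 Rab genes called between replicate numbers, leaving out Rab39b, which has no counts in replicate 3. Rab7b, Rab44 and Rab32 spread the most and replicate 2 lies below the line for most genes.

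The proteins that run the Rab cycle were examined as a list of 145 genes, of which 134 were tested. The list was written with earlier results of these data known. No gene of it passed the test by edgeR, against 4.75% of all genes, and 17 had an unadjusted p under 0.05, against 2435 of 12572. DESeq2 called 0, with 9 at an unadjusted p under 0.05, against 514 called and 1641 at an unadjusted p under 0.05 among all 12572. Values were positive for 64 and negative for 70, with a median log2 fold change of -0.01. Exchange factors, which load GTP, had 16 positive and 15 negative values and a median of 0.00. The GTPase-activating proteins, which switch Rab proteins off, had 18 and 15 with a median of 0.01, and the prenylation and membrane extraction genes 3 and 5 with a median of -0.02. Effectors of recycling and secretion had 20 and 11 with a median of 0.02.

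Endosomal and lysosomal effectors, the tethers and adaptors that early and late endosome Rab proteins recruit, had mostly negative values. Of 31 tested, 24 values were negative, against 6216 of the 12572 genes tested. Lower levels in acLDL-high cells in all 3 pairs were seen for 12 genes (38.7%), against 19.4% of all genes. The median log2 fold change was -0.05, with no call. The 12 were Eea1, Rbsn, Pik3c3, Pik3r4, Rilp, Plekhm1, Rubcn, Vps11, Vps33a, Vps33b, Tgfbrap1 and Vps26b. Plekhm1, an adaptor that links Rab7 to the fusion machinery of lysosomes, had 42.5, 43.4 and 43.0 CPM in acLDL-low and 38.5, 38.6 and 39.2 CPM in acLDL-high libraries. The populations did not overlap, but the difference missed the threshold, with a log2 fold change of -0.15 (SE 0.05, edgeR adjusted p = 0.0919). Rbsn, a Rab4 and Rab5 effector of early endosomes, had 51.4, 56.2 and 54.4 CPM and 46.2, 49.1 and 51.6 CPM, a log2 fold change of -0.14 (SE 0.05, edgeR adjusted p = 0.107). Among the GTPase-activating proteins, Evi5, which acts on Rab11, had 73.9, 73.6 and 85.8 CPM and 80.5, 81.5 and 94.2 CPM, a log2 fold change of 0.13 (SE 0.04, edgeR adjusted p = 0.0902). These 3 genes were chosen after their values were seen. The effectors were listed with earlier results of these data known, so their shared direction is a description of these libraries.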

How the data were processed

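RNA-seq was performed on 3 acLDL-low and 3 acLDL-high libraries of sorted 4T1-T cells. The authors aligned reads to mm10 and deposited raw counts per gene, without normalization. The submitters' processing notes name STAR 2.5.2a, featureCounts 1.4.3-p1 and DESeq2 1.20.0. The annotation release and strand setting are not given in the sources used here. No value column of the count table was left out. A second deposited table holds the authors' DESeq2 comparison. Other entries of it, the gene IDs and symbols, were used, and its fold changes and p-values were not.

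Counts of the 15973 protein-coding genes of that table were fitted with edgeR 4.0.16 (R 4.3.3): filterByExpr, TMM, quasi-likelihood test blocked on replicate number, Benjamini-Hochberg adjustment over all 12572 genes tested and a threshold of 0.05. Differences within pairs used log2 CPM with a prior count of 2. Replicate numbers come from the labels. Libraries of the same number were taken as pairs, since the paper's methods included replicate information in the comparison. Over all genes tested, deviations from the population means correlated at 0.795 to 0.846 within a number and at -0.557 to -0.0882 between numbers. Over the 51 Rab genes tested, they correlated at 0.503, 0.877 and 0.895 within numbers 1, 2 and 3. Between numbers the Rab values ran from -0.831 to 0.0676. Deviations within a population cancel out, which pushes the correlations between numbers negative. Those are therefore no separate support for pairing. The design text says that the experiment was done on separate occasions. Whether these were separate cultures of the 1 clonal line is not stated in the sources used here. With the block, p-values between the populations measure only the spread left once differences between replicate numbers are removed. That spread may be technical. Depth was 70263372 to 94216786 counts, and 3 counts, the floor, are 0.0323 to 0.0429 CPM. The floor covers counting error only.

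Values in every library are given for members with an adjusted p under 0.05 and, per role, for the most abundant per kb and the 2 with the smallest p. The members and lists were chosen with earlier results of these data known. Exon length came from GENCODE M21 (GRCm38) and promoter windows from RefSeq. Alternatives were DESeq2 1.42.0 and its size factors, no block, 2 other filters, all genes of the count table, an adjusted p under 0.01 and leaving out each replicate.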

Additional observations from a re-analysis of the deposited data

How the results depend on the processing

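Without the replicate block no Rab gene was called (0 of 49 tested, 0 at an unadjusted p under 0.05) and 0 genes in all (45 at an unadjusted p under 0.05). The block therefore carries the calls of Rab32 and Rab25. DESeq2 with the block called 1 Rab gene, as did an adjusted p under 0.01, at which 199 genes in all were called. Without the low-count filter 932 genes in all were called, Rab32 and Rab25 among them. Leaving out replicate 1, 2 or 3 left 1 Rab gene called, Rab32, each time, while the count over all genes ran from 126 (without replicate 3) to 869 (without replicate 2). Rab32 had an adjusted p of 1.94e-08 to 0.0314 over the left-out replicates and was called in 8 of 9 alternatives, with log2 fold changes of 0.46 to 0.60. Rab25 was called in 4 of 9. The median over the Rab genes stayed between 0.01 and 0.04. The count of Rab genes that differed between replicate numbers was 23 at an adjusted p under 0.01 and ran from 18 (without replicate 2) over 23 (without replicate 3) to 36 (without replicate 1).

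The machinery list had 0 to 2 calls over the left-out replicates. Without replicate 1 they were Rin1 (log2 fold change -0.25) and Rabgap1l (0.22), and without replicate 2 Rin2 (0.17) and Tbc1d2 (-0.29). These 4 were named after their values were seen. Direction counts were followed under alternatives chosen after seeing the data. Recycling Rab genes with a positive value numbered 11 or 12, and endosomal and lysosomal effectors with a negative value 20 to 26. Of the values of single members under the alternatives, 431 kept their side of the threshold, 6 lost it and none changed direction while called. The cause of these changes was not tested. Depth limits members under 1 CPM, whose fold changes rest on few counts.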
